A study of Mus musculus with 9 samples.

Results

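Serpinb1a, Serpinb2, Serpinb6a, Serpinb6b, Serpinb8, Serpinb9 and Serpinb10 belong to clade B of the serpin superfamily of protease inhibitors. These 7 genes were taken by name from a list, out of 53801 genes counted in each library. The list was drawn up with earlier results of these data known: its members were chosen by their normalized counts across sham blood, stroke blood and stroke brain, so the levels and differences of the 7 genes are given below as descriptions, with no test. Tests are given only for genes that are not among the 7, although counts and shares over all genes tested include the 7. The other gene lists used below were also chosen with earlier results of these data known. Their counts of called genes, set beside the shares over all genes, are therefore descriptions too.

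Monocytes and macrophages were taken from male C57BL/6J mice aged 9 weeks and sequenced as bulk RNA. The sham blood group (3 libraries, 1 mouse each) came from sham-operated mice, and the day of their sampling is not given in the sources used here. The stroke blood group (3 libraries, 1 mouse each) came from mice sampled 5 days after dMCAO, a cortical stroke model in which the distal part of the middle cerebral artery and the common carotid artery are both permanently closed on the left side. The stroke brain group (3 libraries, each a pool of 5 brains) came from the injured hemisphere at the same day after dMCAO. All cells were sorted as CD11c-Ly6G-CD11b+CD45high, a gate that does not separate monocyte-derived macrophages from microglia that have raised CD45, and blood was prepared on Ficoll whereas brain was prepared on Percoll, so tissue and preparation cannot be told apart.

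Each library held between 18475118 and 22623578 counts in genes, and 3 counts, used here as the limit of detection, corresponded to 0.133 to 0.162 CPM (counts relative to library size). All 7 markers of classical monocytes were present in each group, with a summed level of 14123 to 31313 CPM in sham blood, 13527 to 15531 CPM in stroke blood and 4618 to 6171 CPM in stroke brain. The 8 microglia markers summed to 161 to 211 CPM in sham blood, 146 to 207 CPM in stroke blood and 1178 to 3489 CPM in stroke brain, and 8 of 8 rose in brain over stroke blood. The 6 erythroid markers summed to 3.77 to 13.7 CPM in brain against 14197 to 19954 CPM in stroke blood and 31280 to 34213 CPM in 2 sham libraries, while sham library 1 stood apart at 1261 CPM. Ly6g, the neutrophil antigen that the gate removes, had 0 to 14 counts in every library, but of 11 tested neutrophil markers (13 listed) 7 rose and 1 fell in brain over stroke blood, and of 12 tested 4 rose and 1 fell over sham blood. The 13 summed to 1061 to 3451 CPM in sham blood, 678 to 1172 CPM in stroke blood and 1190 to 1769 CPM in brain. The part that these other cells play in the differences between brain and blood was not tested, and in bulk RNA fewer cells of a type and less RNA per cell cannot be told apart.

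Serpins are suicide inhibitors: the protease cleaves an exposed loop of the serpin, which then changes shape and traps the enzyme in a covalent complex. Clade B serpins lack a classical secretion signal and act largely inside the cell, where they guard the cytosol and nucleus against proteases leaking from granules and lysosomes, although a few are also released. In myeloid cells their best known targets are the neutrophil serine proteases, granzymes, urokinase and furin.

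The 7 genes lie in 2 clusters of the mouse genome (GRCm38). GENCODE classes 6 of them as protein coding and Serpinb10 as a polymorphic pseudogene, whereas RefSeq classes Serpinb10 as protein coding, and counts of its RNA do not show whether protein was made. Serpinb2 (chr1:107511423-107535478), Serpinb10 (chr1:107529003-107549271) and Serpinb8 (chr1:107590006-107610484) follow each other on the plus strand of chromosome 1. Serpinb1a (chr13:32842092-32851185, minus strand), Serpinb6b (chr13:32965209-32979067, plus strand), Serpinb9 (chr13:33003250-33017957, plus strand) and Serpinb6a (chr13:33917918-34002794, minus strand) lie on chromosome 13. Serpinb2 and Serpinb10 overlap on the same strand and share 291 exon bases in 3 stretches (chr1:107529011-107529091, chr1:107532363-107532538 and chr1:107535445-107535478), which are 12.4% of the exon bases of Serpinb2 and 8.34% of those of Serpinb10. How the authors' counting assigned a read in these stretches is not given in the sources used here, so the counts of Serpinb2 and Serpinb10 are also given as a sum. Of the 5409 exon bases of Serpinb6a, 29.3% overlap genes on the opposite strand (Nqo2, Ripk1 and 1110046J04Rik), and its reads could not be told apart from theirs if the counting ignored strand.

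The 250 bases before the RefSeq start sites (GRCm38.p6, plus strand) of the 3 neighbours on chromosome 1 are shown because these genes sit side by side and yet had unlike levels across the groups. Capitals mark matches, on either strand, to TGANTCA (the AP-1 motif), TTNNGNAA (a loose C/EBP motif, which also covers the full TTGCGCAA), the NF-kB motif (GGG, any 5 bases, then CC), GAGGAAGT (PU.1) or TATAAA (the TATA box).
Serpinb2 promoter (chr1:107511173-107511422): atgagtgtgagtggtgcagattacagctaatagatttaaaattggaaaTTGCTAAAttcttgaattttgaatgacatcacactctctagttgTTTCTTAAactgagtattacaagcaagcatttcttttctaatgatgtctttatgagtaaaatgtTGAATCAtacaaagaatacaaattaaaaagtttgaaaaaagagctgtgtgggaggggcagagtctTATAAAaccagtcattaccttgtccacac
Serpinb10 promoter (chr1:107528753-107529002): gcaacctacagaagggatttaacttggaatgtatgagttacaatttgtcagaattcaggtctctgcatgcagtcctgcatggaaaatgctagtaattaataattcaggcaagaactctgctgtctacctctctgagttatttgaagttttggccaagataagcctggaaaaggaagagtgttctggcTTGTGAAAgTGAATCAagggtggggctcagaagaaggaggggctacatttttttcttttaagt
Serpinb8 promoter (chr1:107589756-107590005): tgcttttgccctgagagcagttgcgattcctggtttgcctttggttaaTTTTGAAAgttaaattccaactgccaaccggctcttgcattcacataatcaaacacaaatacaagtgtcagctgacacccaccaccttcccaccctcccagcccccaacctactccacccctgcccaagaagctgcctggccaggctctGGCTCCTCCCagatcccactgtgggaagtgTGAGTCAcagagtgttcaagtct
Each of the 3 held an AP-1 match, TGAATCA starting 94 bases before the start of Serpinb2 and 54 bases before that of Serpinb10, and TGAGTCA 23 bases before that of Serpinb8. A match to this motif stood in 6.75% of the 32851 promoter windows of the same length. The TATAAA of Serpinb2 began 29 bases before its start, and 12.4% of all windows held one. Serpinb8 alone of the 3 held an NF-kB match (45.8% of windows), all 3 held a loose C/EBP match (36.8% of windows), and none held the full C/EBP motif (0.164%) or the PU.1 motif (2.44%). The first listed windows of Serpinb6a, Serpinb6b and Serpinb9 each held a loose C/EBP match and no AP-1 match. The matches are descriptions of letters and say nothing of binding in these cells.

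**Figure D1:**
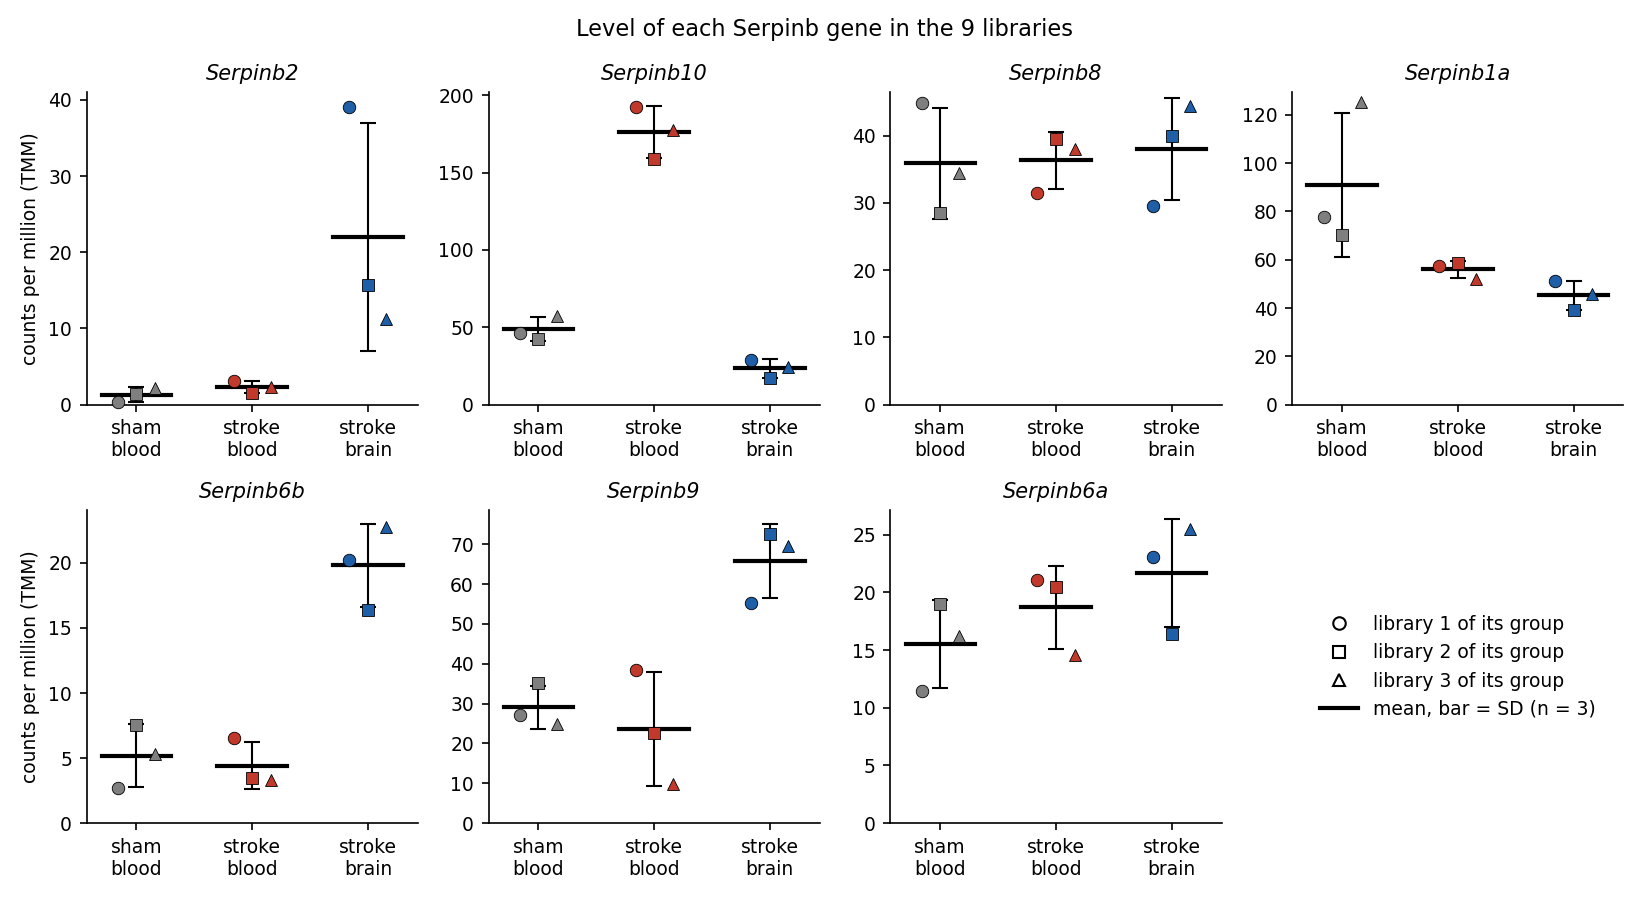
Level of each Serpinb gene in CPM (y axes, each from 0) in the 3 libraries of sham blood, stroke blood and stroke brain; the line is the mean and the bar the SD (n = 3). Serpinb2, Serpinb6b and Serpinb9 lay higher in every brain library than in any blood library, Serpinb10 lay highest in the 3 stroke blood libraries, and Serpinb8 overlapped in all groups.

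Serpinb10 (bomapin), an inhibitor made mainly by blood-forming and myeloid cells and found in the nucleus, had 928, 907 and 1032 counts in sham blood, 3816, 3315 and 3037 counts in stroke blood and 604, 409 and 560 counts in stroke brain. Every stroke blood library lay above every sham library, and every brain library lay below both. The level was 48.9 ± 7.65 CPM (SD, n = 3) in sham blood, 176 ± 17.1 CPM in stroke blood and 23.5 ± 6.13 CPM in stroke brain. The fitted log2 fold change was 1.84 (SE 0.17) for stroke blood over sham blood, -2.88 (SE 0.23) for stroke brain over stroke blood and -1.04 (SE 0.24) for stroke brain over sham blood.

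Serpinb2 (plasminogen activator inhibitor 2), an inhibitor of urokinase and tissue plasminogen activator that macrophages make when activated, had 6, 30 and 40 counts in sham blood, 62, 32 and 39 counts in stroke blood and 809, 377 and 257 counts in stroke brain. The 3 brain libraries stood apart from all 6 blood libraries, and brain library 1 had the highest count by a wide margin. The level was 1.31 ± 0.967 CPM (SD, n = 3) in sham blood, 2.31 ± 0.800 CPM in stroke blood and 22.0 ± 15.0 CPM in stroke brain. The log2 fold change was 3.28 (SE 0.51) for brain over stroke blood and 4.09 (SE 0.73) for brain over sham blood, and 0.81 (SE 0.65) for stroke blood over sham blood, where the groups overlapped. Without brain library 1 the first became 2.56 and the second 3.36, and without sham library 3 the second became 4.68 and that between the blood groups 1.40. Brain library 1 also held the most Elane (3047 counts, against 252 and 386 in the other brain libraries). Mpo was highest there too (2965 counts, against 1017 and 409), and both are granule enzymes of neutrophil precursors. Of the other neutrophil markers, Camp, Cxcr2, S100a8 and S100a9 were also highest there, whereas Ltf, Mmp9 and Retnlg were lowest. In brain libraries 1, 2 and 3 the 13 neutrophil markers summed to 1553, 1190 and 1769 CPM, and the 7 eosinophil markers to 320, 193 and 207 CPM. The 8 non-classical monocyte markers summed to 4429 CPM in library 1, against 1790 and 2115 CPM. Nr4a1 alone gave 3081 CPM of that sum, against 692 and 863 CPM. Ace, Spn, Cd36 and Itgal were also highest there, and Treml4, Eno3 and Pglyrp1 lowest. The part of these genes in the Serpinb2 level was not tested.

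Taken as a sum, Serpinb10 and Serpinb2 came to 50.3 ± 8.31 CPM (SD, n = 3) in sham blood, 179 ± 17.9 CPM in stroke blood and 45.5 ± 19.8 CPM in stroke brain. The sum in brain lay between 32.7 and 68.3 CPM and overlapped that in sham blood, between 44.2 and 59.7 CPM, so the total from the overlapping pair was separated only in stroke blood. Within the sum the balance differed between tissues. Per exon length, as RPKM (CPM divided by kilobases of exon), Serpinb2 made up 0.951% to 5.45% of the pair in sham blood, 1.41% to 2.36% in stroke blood and 40.5% to 66.6% in stroke brain.

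Serpinb8, an inhibitor of the proprotein convertase furin and the next gene on chromosome 1, was level across the study. It had 893, 606 and 617 counts in sham blood, 624, 825 and 650 counts in stroke blood and 612, 961 and 1020 counts in stroke brain. The groups overlapped in every comparison. The log2 fold change was 0.01 (SE 0.21) for stroke blood over sham blood, 0.09 (SE 0.20) for brain over stroke blood and 0.09 (SE 0.23) for brain over sham blood, and its sign changed under other scalings or with a library left out. The mean level was 35.9 ± 8.25, 36.3 ± 4.25 and 38.0 ± 7.61 CPM (SD, n = 3) in sham blood, stroke blood and brain.

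Serpinb9, the inhibitor of granzyme B that protects cytotoxic lymphocytes and antigen-presenting cells from this protease, had 543, 746 and 447 counts in sham blood, 762, 475 and 167 counts in stroke blood and 1141, 1746 and 1599 counts in stroke brain. All 3 brain libraries were above all 6 blood libraries, and stroke blood library 3 was the lowest of the 9. The level was 29.1 ± 5.37 CPM (SD, n = 3) in sham blood, 23.6 ± 14.4 CPM in stroke blood and 65.8 ± 9.36 CPM in brain. The log2 fold change was 1.50 (SE 0.40) for brain over stroke blood, 1.19 (SE 0.19) for brain over sham blood and -0.31 (SE 0.41) for stroke blood over sham blood, where the groups overlapped. Without stroke blood library 3 the last became 0.06.

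Genes of natural killer (NK) cells varied alongside Serpinb9 in some libraries and not in others. Gzmb, the granzyme that Serpinb9 inhibits, had 892, 1824 and 786 counts in sham blood, 1987, 780 and 276 counts in stroke blood and 1585, 4443 and 3803 counts in brain. Within stroke blood, Serpinb9 and Gzmb were both highest in library 1 and lowest in library 3, and in sham blood both were highest in library 2. The 12 NK and T cell markers summed to 338 to 868 CPM in sham blood, 366 to 1153 CPM in stroke blood and 862 to 1698 CPM in brain, 3 of the 12 rose in brain over stroke blood and 3 over sham blood, and none stayed at 3 counts or fewer throughout a group. The NK receptor gene Ncr1 had 329 counts in stroke blood library 3 and 2165 counts in brain library 3. The highest blood sum, in stroke blood library 1, exceeded the sum in brain library 1, whereas Serpinb9 was higher in brain library 1 (55.1 CPM) than in stroke blood library 1 (38.5 CPM). Sham library 1 had more Serpinb9 than sham library 3 (27.3 against 24.9 CPM) but a lower sum (338 against 493 CPM). In brain, Serpinb9 was highest in library 2 (72.7 CPM) and the sum in library 3 (1698 CPM). The part of NK cells in the Serpinb9 level was not tested.

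Serpinb6b, an inhibitor related to human SERPINB6, had 54, 160 and 95 counts in sham blood, 129, 72 and 57 counts in stroke blood and 419, 394 and 523 counts in stroke brain. The brain libraries were again clear of all blood libraries, and the blood groups overlapped. The level was 5.18 ± 2.42 CPM (SD, n = 3) in sham blood, 4.43 ± 1.80 CPM in stroke blood and 19.8 ± 3.21 CPM in brain, with a log2 fold change of 2.18 (SE 0.33) over stroke blood and 1.95 (SE 0.37) over sham blood. Between the blood groups it was -0.23 (SE 0.44), which turned to 0.14 without sham library 2. As with Serpinb9, the highest sham library was library 2 and the highest stroke blood library was library 1, the libraries with the highest NK and T cell sums of their groups. In brain, library 3 was highest in both Serpinb6b (22.8 CPM) and this sum (1698 CPM). Brain library 1 had more Serpinb6b than library 2 (20.2 against 16.4 CPM) but a lower sum (862 against 1576 CPM). The T cell genes of the list, Cd3d, Cd3e, Cd8a and Trac, did not follow the sum in brain. Each was highest in library 1, with Trac at 21.6 CPM against 7.03 and 4.57 CPM in libraries 2 and 3. The part of NK and T cells was likewise not tested.

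Serpinb6a, the closest mouse counterpart of human SERPINB6, an inhibitor of cathepsin G, did not follow Serpinb6b. It had 228, 403 and 291 counts in sham blood, 417, 428 and 249 counts in stroke blood and 477, 395 and 586 counts in brain. The groups overlapped in every comparison, with a log2 fold change of 0.24 (SE 0.25) for brain over stroke blood, 0.49 (SE 0.26) for brain over sham blood and 0.26 (SE 0.25) for stroke blood over sham blood. The overlapping antisense neighbour Nqo2, a quinone reductase, was lower in brain than in sham blood (log2 fold change -1.17, SE 0.18, edgeR adjusted p = 0.0054), whereas Ripk1, a kinase of the cell death pathways, was not called (log2 fold change 0.10, edgeR adjusted p = 0.675).

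Serpinb1a, the inhibitor of neutrophil elastase, proteinase 3 and cathepsin G in the cytosol of myeloid cells, had 1545, 1489 and 2247 counts in sham blood, 1138, 1227 and 888 counts in stroke blood and 1056, 942 and 1049 counts in brain. The 3 groups did not overlap at the CPM scale: sham blood was highest, at 91.0 ± 29.9 CPM (SD, n = 3), followed by stroke blood at 56.0 ± 3.58 CPM and brain at 45.3 ± 5.92 CPM. The step from stroke blood to brain was small, since the lowest stroke blood library had 51.9 CPM and the highest brain library 51.0 CPM. The log2 fold change was -0.70 (SE 0.23) for stroke blood over sham blood, -0.28 (SE 0.17) for brain over stroke blood and -0.99 (SE 0.24) for brain over sham blood. Sham library 3, with 125 CPM, also had the highest classical monocyte sum (31313 CPM) and neutrophil sum (3451 CPM) of the sham libraries, and without it the value against stroke blood became -0.41 and that against brain -0.70.

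**Figure D2:**
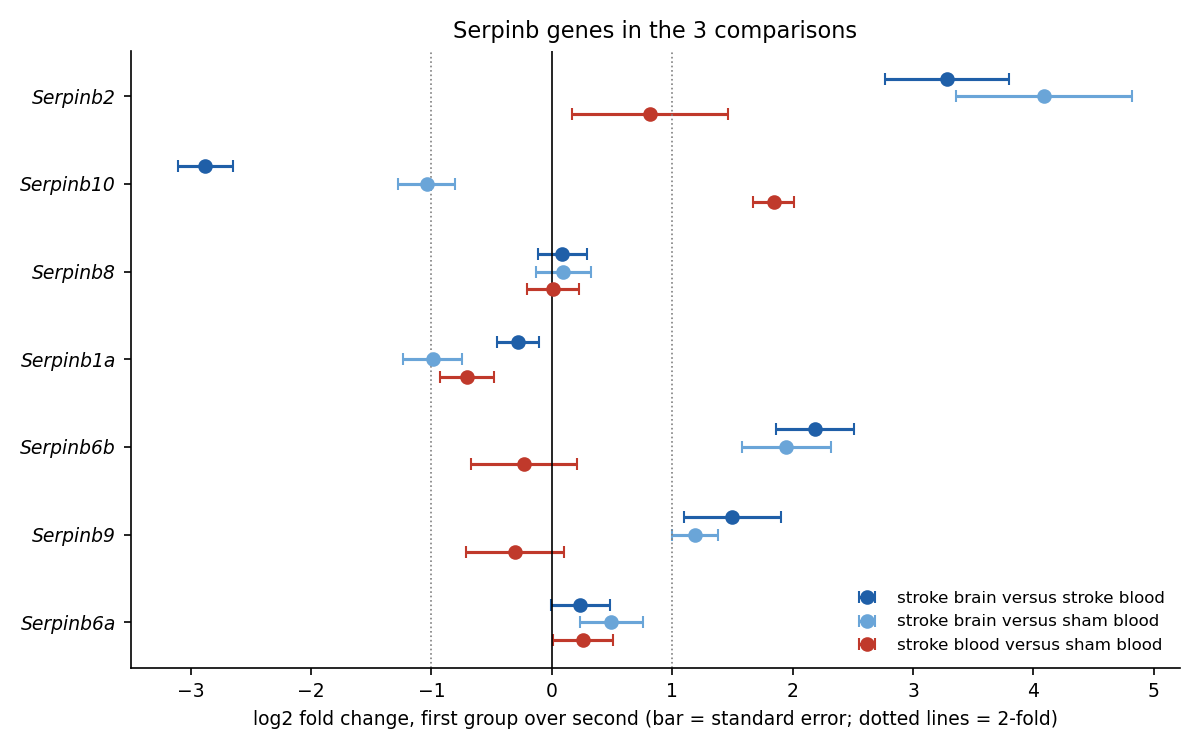
Fitted log2 fold change (x axis; points, bars are standard errors) of the 7 genes in brain over stroke blood, brain over sham blood and stroke blood over sham blood, with dotted lines at 2-fold. Serpinb2, Serpinb6b and Serpinb9 lie to the right of the 2-fold line in both brain comparisons, and Serpinb10 lies on opposite sides of 0 in brain over stroke blood (-2.88) and in stroke blood over sham blood (1.84).

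Counted together, 4 of the 7 genes differed by over 2-fold between brain and stroke blood (Serpinb2, Serpinb6b and Serpinb9 higher, Serpinb10 lower), as did 29.9% of the 13189 genes tested there, 17.6% higher and 12.4% lower. The same 4 did so between brain and sham blood, with 22.9% of 13020 genes tested, 15.3% higher and 7.57% lower, and only Serpinb10 did so between stroke blood and sham blood, with 7.75% of 12664 genes, 4.12% higher and 3.62% lower. Of all 12664 genes tested between the blood groups, 0.00790% passed an absolute log2 fold change of 1 and an edgeR adjusted p below 0.05. Outside the 7, 1579 of 12657 genes tested there had an unadjusted edgeR p below 0.05. Brain over sham blood had the members nearest to the 2-fold line, Serpinb10 at -1.04 just past it and Serpinb1a at -0.99 just short of it. The groups did not overlap for 5 of 7 genes in brain over stroke blood (3 higher and 2 lower), beside 47.9% of all genes tested (24.9% higher). They did not overlap for 5 of 7 in brain over sham blood (3 higher and 2 lower), beside 41.3% (21.5% higher and 19.8% lower), and for 2 of 7 in stroke blood over sham blood (1 each way), beside 18.4% (9.33% higher and 9.03% lower). The median log2 fold change of the 7 was 0.24, 0.49 and 0.01 in these comparisons, beside 0.06, 0.01 and -0.03 over all genes tested. All 7 passed the filter on low counts in every comparison. The list was chosen with these contrasts known, so nothing is read from the counts. The first and second comparisons share the brain libraries, the second and the last the sham libraries, and the first and the last the stroke blood libraries.

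**Figure D3:**
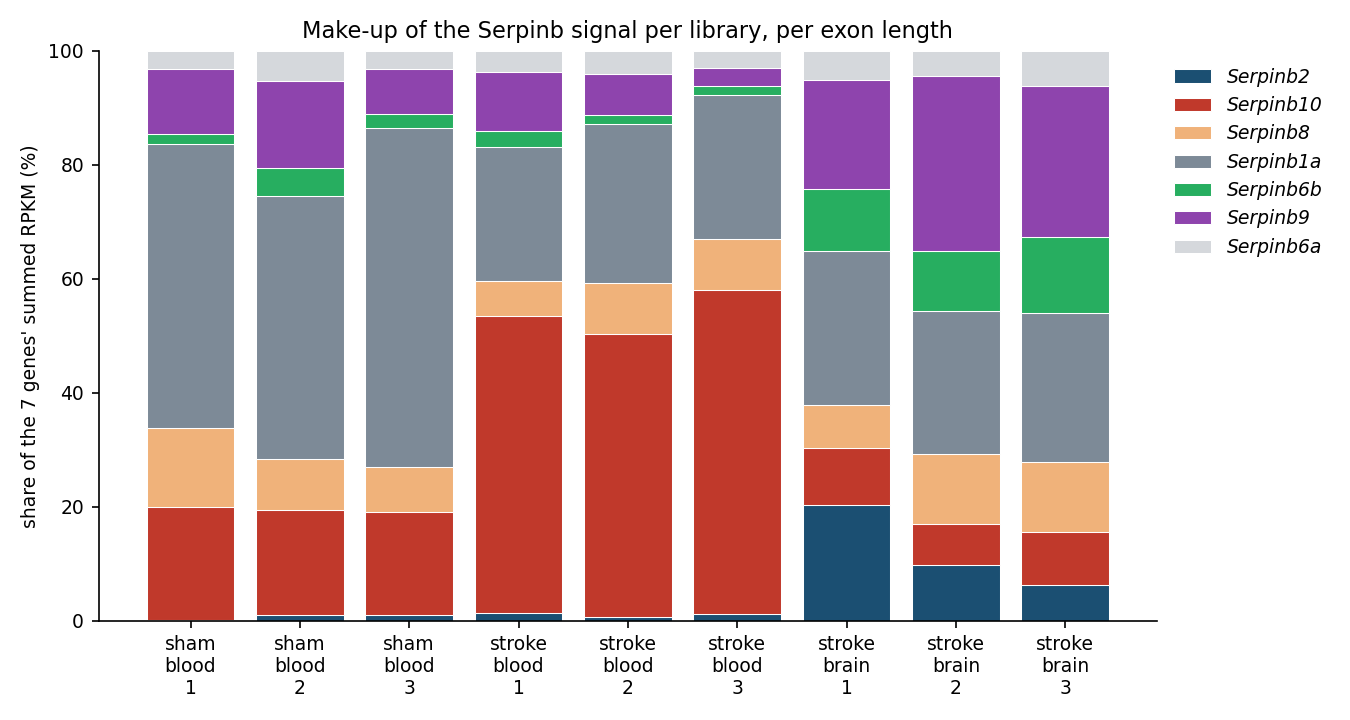
Share of the summed RPKM of the 7 genes (y axis, %) taken by each gene in each of the 9 libraries. Serpinb1a took the largest share in sham blood, Serpinb10 in stroke blood, and in brain no gene took above 30.6%, with Serpinb2 at 20.2% in library 1, 9.82% in library 2 and 6.30% in library 3.

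The summed level of the 7 genes was 227 ± 33.7 CPM (SD, n = 3) in sham blood, 318 ± 28.8 CPM in stroke blood and 236 ± 16.3 CPM in brain, so the total in brain lay within the range of sham blood while its make-up did not. Per exon length Serpinb1a took 46.0% to 59.5% of the sum in sham blood, Serpinb10 took 49.6% to 57.0% in stroke blood, and in brain Serpinb1a took 25.0% to 26.9% and Serpinb9 19.2% to 30.6%. In sham blood the order of mean RPKM was Serpinb1a (39.5), Serpinb10 (14.0), Serpinb9 (8.33), Serpinb8 (7.49), Serpinb6a (2.87), Serpinb6b (2.29) and Serpinb2 (0.560), and the ranges of Serpinb9 and Serpinb8, and of Serpinb6a and Serpinb6b, overlapped. In stroke blood Serpinb10 (50.5 RPKM) stood clear above Serpinb1a (24.3 RPKM), which stood clear above Serpinb8 (7.58), Serpinb9 (6.77), Serpinb6a (3.46) and Serpinb6b (1.96), each of which overlapped the next, and Serpinb2 was last at 0.985 RPKM. In brain the ranking was much flatter: Serpinb1a (19.7 RPKM), Serpinb9 (18.8), Serpinb2 (9.36), Serpinb6b (8.75), Serpinb8 (7.92) and Serpinb10 (6.74) each overlapped the next in order, and only Serpinb6a (4.01 RPKM) was apart from its neighbour. The place of Serpinb2 rested on brain library 1, with 16.6 RPKM against 6.68 and 4.76 RPKM, and without that library its mean was 5.72 RPKM, below those of Serpinb8 (8.80), Serpinb6b (8.66) and Serpinb10 (5.93).

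The remaining 21 Serpinb genes of the mouse were little expressed. Of these, 15 had 3 counts or fewer in every library, 3 more did not exceed 6 counts in any, and the other 3, Serpinb9b, Serpinb1b and Serpinb7, were tested. None of the 3 was called by edgeR in brain over stroke blood or over sham blood, nor were the 2 of them tested between the blood groups. Serpinb9b, an additional copy of the Serpinb9 family, was the most abundant of them, with 42, 202 and 81 counts in sham blood, 308, 179 and 31 counts in stroke blood and 121, 391 and 531 counts in brain. Its order within stroke blood was that of Serpinb9, highest in library 1 and lowest in library 3, and the groups overlapped (log2 fold change 0.82 for brain over stroke blood, edgeR adjusted p = 0.387). Over sham blood its log2 fold change was 1.50 (SE 0.63), with an adjusted p of 0.135 by edgeR, 0.0433 by DESeq2 and 0.0433 by edgeR with a replicate block. Reads that match more than 1 member of this family could be split between copies.

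**Figure D4:**
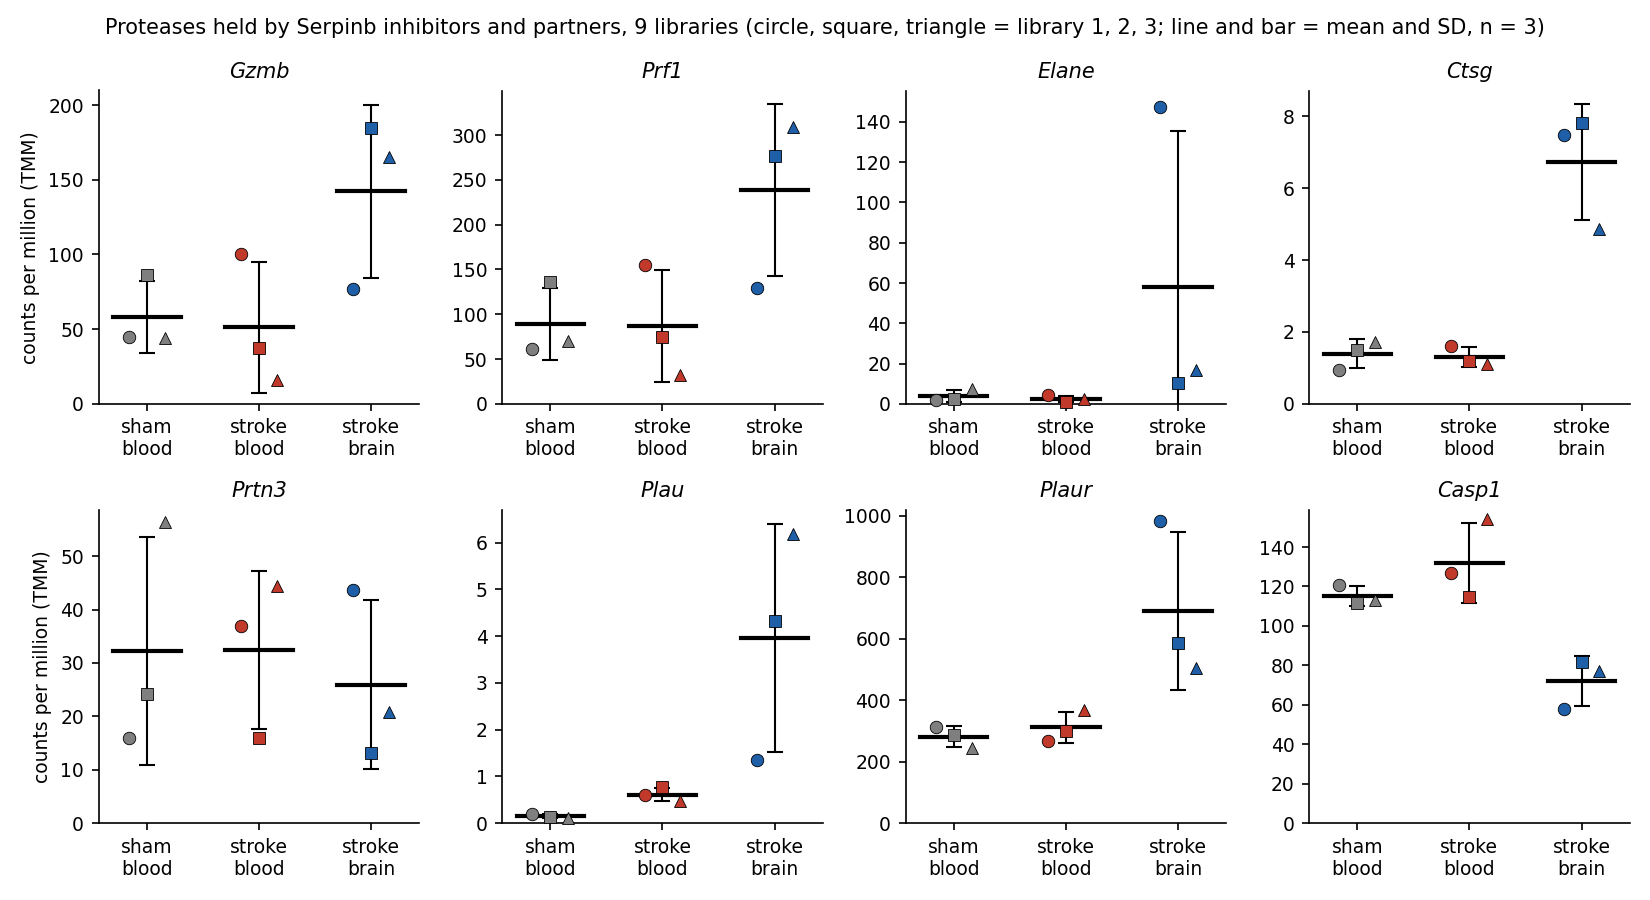
CPM (y axes, from 0) of 6 proteases or partners of Serpinb inhibitors with Plaur and Casp1 in the 9 libraries; the line is the mean and the bar the SD (n = 3), cut at 0. Brain libraries lie above all blood libraries for Elane, Ctsg, Plau and Plaur and below them for Casp1, whereas for Gzmb and Prf1 brain library 1 overlaps blood.

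Among 22 tested genes for proteases that Serpinb inhibitors hold in check and for proteins close to them (of 26 listed), 11 rose and 1 fell in brain over stroke blood, with a median log2 fold change of 1.48. Across all genes tested there, 13.1% rose and 7.86% fell by the same rule. Over sham blood 10 rose and none fell (all genes tested, 9.75% and 3.67%), among them Prf1, which does not encode a protease. Cma1 and Gzmm, counted as rising over stroke blood, were each called there in 2 of 6 edgeR fits with a library left out. Cma1 was likewise called in 2 of 6 over sham blood. Ctsg, which encodes cathepsin G, the target of Serpinb1a and Serpinb6a, had 19 to 32 counts in blood and 155, 188 and 112 counts in brain, and rose over stroke blood (log2 fold change 2.38, SE 0.39, edgeR adjusted p = 0.00213) and over sham blood (2.28, SE 0.38, edgeR adjusted p = 0.00729). Elane, neutrophil elastase, rose by 4.57 on the log2 scale over stroke blood (SE 1.02, edgeR adjusted p = 0.00911). That call for Elane was lost without stroke blood library 3 (adjusted p = 0.0544, edgeR), and its log2 fold change became 2.46 without brain library 1. Over sham blood Elane rose by 3.93 on the log2 scale (SE 1.09, edgeR adjusted p = 0.0411), a call lost when any sham library or brain library 1 was left out (1.82 without brain library 1, edgeR adjusted p = 0.0746). Elane is itself on the list of neutrophil markers, of which 7 of 11 tested rose over stroke blood, among them the granule genes Ngp, with 0, 15 and 361 counts in stroke blood and 3932, 3857 and 7098 counts in brain, and Camp; the part of neutrophils or their precursors was not tested. Prtn3, proteinase 3, was not called (log2 fold change -0.29, edgeR adjusted p = 0.677). Serpinb1a, which holds all 3 of these enzymes, was lower in every brain library than in every sham library.

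Gzmk, a granzyme of cytotoxic lymphocytes, had 8 counts in all over the 3 stroke blood libraries and 74, 68 and 35 counts in brain (edgeR adjusted p = 0.00594). Gzmb itself rose over sham blood (log2 fold change 1.30, SE 0.38, edgeR adjusted p = 0.0477) but was not called over stroke blood (1.49, SE 0.57, edgeR adjusted p = 0.0745). The call over sham blood was lost when any of sham libraries 1 or 3 or brain libraries 2 or 3 was left out, with adjusted p between 0.12 and 0.146 (edgeR), and the groups overlapped. Prf1, which encodes the pore-forming perforin that delivers granzymes, rose over sham blood by 1.43 on the log2 scale (SE 0.39, edgeR adjusted p = 0.0397), a call that was also lost when any of those 4 libraries was left out, with adjusted p between 0.0995 and 0.125 (edgeR). Casp1, the inflammatory caspase, was 72.3 ± 12.7 CPM (SD, n = 3) in brain and 132 ± 20.2 CPM in stroke blood, a log2 fold change of -0.84 that fell short of 2-fold (edgeR adjusted p = 0.00831), and Casp4 fell by 1.06 on the log2 scale over stroke blood (edgeR adjusted p = 0.00237), but by less than 2-fold, 0.96, without stroke blood library 3.

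Furin, the target of Serpinb8, was 57.5 ± 11.7 CPM (SD, n = 3) in brain, 39.3 ± 7.09 CPM in stroke blood and 30.1 ± 1.36 CPM in sham blood, and was not called over stroke blood (log2 fold change 0.58, edgeR adjusted p = 0.0622) or over sham blood (0.95, edgeR adjusted p = 0.0114). Of the lysosomal cathepsins listed, Ctsk, Ctsl and Ctsb rose in brain and Ctss did not pass (log2 fold change 0.12 over stroke blood, edgeR adjusted p = 0.611), with Ctsk going from 7 counts in all in stroke blood to 100, 2886 and 2998 counts, Ctsl by 2.08 and Ctsb by 1.28 on the log2 scale over stroke blood (edgeR adjusted p = 0.00139, 0.000184 and 0.00081). St14, the membrane protease matriptase, rose by 2.24 on the log2 scale (SE 0.60, edgeR adjusted p = 0.0204), a call lost without stroke blood library 1 or 3 or brain library 3.

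Of 11 tested genes of the urokinase and plasminogen system, in which Serpinb2 acts, 3 rose and 1 fell in brain over stroke blood and the same 3 and 1 did so over sham blood, with a median log2 fold change of -0.09 and -0.13. Over all genes tested, 13.1% rose and 7.86% fell over stroke blood, and 9.75% rose and 3.67% fell over sham blood. Plau, urokinase itself, had 2 to 4 counts in sham blood, 8 to 16 counts in stroke blood and 28, 104 and 142 counts in brain (log2 fold change 2.69 over stroke blood, SE 0.62, edgeR adjusted p = 0.0106). Brain library 1, the highest for Serpinb2, was the lowest brain library for Plau. Plaur, the urokinase receptor, was abundant in blood and rose in brain from 312 ± 50.6 to 691 ± 256 CPM (SD, n = 3; log2 fold change 1.18, SE 0.26, edgeR adjusted p = 0.00848), and without brain library 1 its log2 fold change of 0.83 was under the 2-fold line. The call for Plaur was also lost without stroke blood library 1 (adjusted p = 0.0506, edgeR). Over sham blood the Plaur call was lost without sham library 2, sham library 3 or brain library 1. Serpine2, protease nexin 1, rose from 2.51 ± 1.23 to 70.2 ± 46.2 CPM (SD, n = 3; log2 fold change 4.81, SE 0.54, edgeR adjusted p = 0.000294). F13a1, the factor XIII subunit that cross-links fibrin, fell by 1.06 on the log2 scale (SE 0.22, edgeR adjusted p = 0.00623). Its log2 fold change was -0.84 without stroke blood library 2 and -0.989 without brain library 2, each short of 2-fold. Plat, tissue plasminogen activator, had 139, 28 and 0 counts in brain and was not tested, because its counts were below the filter.

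Serpins of other clades behaved as follows. Of 35 listed, 5 could be tested in brain over stroke blood, and 3 rose and none fell there, with the same result over sham blood (6 tested). Besides Serpine2 these were Serpinf1, pigment epithelium-derived factor, which rose from 1.03 ± 0.527 to 8.07 ± 1.67 CPM (SD, n = 3; log2 fold change 2.98, edgeR adjusted p = 0.0017), and Serpina3g, which rose from 11.9 ± 3.39 to 31.9 ± 8.61 CPM (log2 fold change 1.45, edgeR adjusted p = 0.00434). Among 14 tested inhibitors of other families, 6 rose and 4 fell over stroke blood, and 5 rose and 2 fell over sham blood. The shares of all genes tested were again 13.1% and 7.86% over stroke blood and 9.75% and 3.67% over sham blood, and the median log2 fold changes were 1.45 and 2.05 for the serpins and 0.60 and 0.84 for the other inhibitors. Timp1, an inhibitor of matrix metalloproteinases, had no count in stroke blood and 491, 403 and 389 counts in brain, at least 129-fold higher by the limit of 3 counts over the group (edgeR adjusted p = 3.83e-05). Cst7, cystatin F, an inhibitor of lysosomal cathepsins, rose by 2.11 on the log2 scale (SE 0.38, edgeR adjusted p = 0.00323). Over stroke blood Spint1 rose by 5.96, Timp2 by 3.00 and Reck by 3.69 on the log2 scale (edgeR adjusted p = 2.56e-05, 7.96e-05 and 0.0127). Slpi, an inhibitor of neutrophil elastase, fell there by 1.37, Wfdc17 by 1.73 and Pi16 by 2.07 on the log2 scale (edgeR adjusted p = 0.0042, 0.000257 and 0.00037). The call for Reck was lost without stroke blood library 1 (edgeR adjusted p = 0.068). Over sham blood, edgeR called Slpi and Pi16 in 6 of 6 fits with a library left out. Timp2 and Wfdc17 were called in 3 of these 6, Spint1 in 2 and Reck in 0.

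Between stroke blood and sham blood none of the 54 listed genes or neighbours that were tested was called by edgeR, 11 had an unadjusted p below 0.05, and DESeq2 called 0. Protein-coding genes other than Serpinb genes within 500 kb of the 2 clusters, all 10 of them on chromosome 13, were also followed. Of 8 tested, none was called in brain over stroke blood, and in brain over sham blood only Nqo2 was.

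The gene whose pattern over the 9 libraries was closest to Serpinb6b was Cst7, with a root mean square difference of 0.20 on the centred log2 CPM scale among 7922 genes compared, followed by Ank (0.26) and Sh2d2a (0.31). Cst7 averaged 10.4 CPM in sham blood, 10.6 CPM in stroke blood and 44.8 CPM in brain. For Serpinb9 the nearest were Wdr4 (0.22), Pim2 (0.27) and Lmna (0.32), and for Serpinb2 the nearest were further off, Chd7 (0.64), Fmnl3 (0.71) and Itgax (0.79). Itgax, which encodes the CD11c that the gate excludes, averaged 11.5 CPM in sham blood, 14.7 CPM in stroke blood and 94.2 CPM in brain. Among the 7, Serpinb6b and Serpinb9 were close to each other (0.57), and Serpinb2 and Serpinb10 were the pair furthest apart (2.74).

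The genes nearest to Serpinb10 were mt-Rnr2 (0.36), the mitochondrial large ribosomal RNA, A130071D04Rik (0.36) and mt-Tp (0.41), a mitochondrial transfer RNA. The mean level of mt-Rnr2 was 1764 CPM in sham blood, 4756 CPM in stroke blood and 685 CPM in brain. The part of mitochondrial RNA in the Serpinb10 level was not tested. Serpinb1a was closest to Def8 (0.19), Ap2a2 (0.19) and Atp8a1 (0.20), Serpinb6a to Taf1 (0.15), Ulk3 (0.15) and Abhd16a (0.19), and Serpinb8 to Dimt1 (0.10), D10Wsu102e (0.12) and Pdhx (0.13). These likenesses are descriptions over 9 libraries that share their groups.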

How the data were processed

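RNA of sorted cells was amplified with SMART-Seq HT, made into Nextera XT libraries and sequenced paired-end. The authors used HISAT2 for alignment (GRCm38) and HTSeq for counting by Ensembl gene, and the deposited values are whole read counts, not normalized, in 53801 genes; versions, annotation release, strand and overlap settings are not given in the sources used here.

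Genes were named from GENCODE M21 (53620 identifiers matched). The 7 members and all gene lists were chosen with earlier results of these data known. Each pair of groups was fitted on its 6 libraries with edgeR 4.0.16 (R 4.3.3; TMM, filterByExpr, quasi-likelihood test, two-sided, Benjamini-Hochberg over all genes tested). Called genes changed by over 2-fold with an adjusted p below 0.05. All libraries of a group differed by more than counting error (chi-square over its degrees of freedom, 23.9 to 136). CPM used TMM library sizes, and RPKM used the union of GENCODE exons. Named genes were the 7, up to 6 called genes per list with the largest change, 11 proteases and partners named at the outset (1 is not reported here), and for each member the 3 most alike genes (prior count 2, mean log2 CPM above 3). Genes cited beyond these, such as Prf1, Mpo, Ncr1, Ctsl, Ctsb, Wfdc17, Ctss, Ngp, Camp, Ripk1 and Serpinb9b, were chosen after their values were seen. Promoter windows are from RefSeq and cover 6 of the 7. The limit of 3 counts covers counting error only. DESeq2 1.42.0, other scalings, no filter, a fit of all 9 libraries, a replicate block and each library left out in turn were tried. The test was checked on simulated data.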

Additional observations from a re-analysis of the deposited data

How the results depend on the processing

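Of the member fold changes recomputed under each alternative, 272 moved by less than the spread between replicates, 1 moved by more, and none beyond 2-fold turned sign. The exception was Serpinb1a in brain over stroke blood, which became -0.12 with library size as the only scaling. Differences near 0 did change sign: Serpinb8 in every comparison, and Serpinb6b and Serpinb9 between the blood groups. Members beyond 2-fold numbered 4 in brain over stroke blood under every alternative, 3 to 5 in brain over sham blood and 1 to 2 in stroke blood over sham blood as libraries were left out, 2 when sham library 3 or stroke blood library 2 was absent, since Serpinb2 then passed the line (1.40 and 1.01).

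Between stroke blood and sham blood, 1 gene was called by edgeR, 127 by DESeq2 and 160 with no filter on low counts, where also 1 listed gene was called; with a library left out the number lay between 0 and 16, and the listed genes called stayed at 0. Genes called in brain over sham blood numbered 1146 to 1883 with a library left out (1146 without sham library 3), and in brain over stroke blood 2258 to 3014. The cause was not tested.

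Nothing in the sources used here says that same-numbered libraries share animals, and their deviations correlated between -0.07 and 0.07, so replicate numbers were taken as names only. With the replicate number as a block, 2634 genes were called in brain over stroke blood and 1571 in brain over sham blood, against 2771 and 1748 without it. The members beyond 2-fold stayed at 4, 4 and 1 in brain over stroke blood, brain over sham blood and stroke blood over sham blood.

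Genes under the filter on low counts, such as Plat, were tested only in alternatives that kept them: Plat was called in 2 of 6 for brain over stroke blood, and not by DESeq2 (adjusted p = 0.0588).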
